A study of Mus musculus with 10 samples.

Results

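The Snail, Twist, Zeb and Prrx genes encode transcription factors that drive epithelial-mesenchymal transition, the change by which epithelial cells loosen their junctions and become migratory. The set comprised 9 genes, Snai1, Snai2, Snai3, Twist1, Twist2, Zeb1, Zeb2, Prrx1 and Prrx2, chosen by name, and all 9 were found among the 42465 gene models of the deposited expression table. Expression was measured by RNA sequencing of mouse neural tube explants taken at embryonic day 9.5 and cultured for 4 days. Explants were Ednrb-/- (5 libraries), lacking the endothelin receptor type B, or wild type (WT, 5 libraries). The culture medium of both genotypes held serum (10% FBS) and the receptor's peptide ligand EDN3 at 20 nM, and the samples are described as containing neural crest cells. The labels give neither the design of the Ednrb allele nor the number of embryos behind a library, and the study's title names melanoblast proliferation as its question. The libraries of a genotype are called biological replicates in the design text, which does not say whether each came from a separate embryo or litter.

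Neural crest cells leave the dorsal neural tube by an epithelial-mesenchymal transition and then form pigment cells, peripheral glia and neurons and, in the head, connective tissue. Snail factors are zinc finger repressors that bind E-boxes in the promoters of junction genes such as Cdh1. Zeb factors carry a zinc finger cluster at each end and repress through the same kind of E-box. Twist factors are basic helix-loop-helix proteins that bind E-boxes as dimers with E proteins. Prrx factors are paired-type homeodomain proteins of embryonic mesenchyme.

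In Ednrb-/- explants Snai2, Prrx2, Prrx1, Twist1 and Snai1 were lower than in WT explants, while Zeb1 and Zeb2 did not pass the test. The unit is FPKM, fragments per kilobase of gene length scaled to library size, so that levels can be compared between genes. A gene was tested if it had at least 0.5 FPKM in at least 5 of the 10 libraries, which 7 of the 9 members did, and Twist2 and Snai3 did not. A gene at that level in only the 5 libraries of 1 genotype can pass this filter. With limma on log2(FPKM + 0.5) and Benjamini-Hochberg adjustment over 15156 genes, 5 of the 7 tested members fell and 0 rose at an adjusted p under 0.05, and these 5 calls are given as a description of the members. Over all genes tested 13.0% fell and 6.53% rose by the same rule, and the median log2 fold change was 0.0048. The groups did not overlap, with Ednrb-/- lower, for 1 of the 7 tested members, Snai2, against 8.44% of all genes tested, and for none with Ednrb-/- higher, against 4.78%. The count of members that fell was 3 without WT replicate 3, WT replicate 4, Ednrb-/- replicate 3 or Ednrb-/- replicate 5, each left out in turn, because Twist1 and Snai1 passed no longer. Fold changes are Ednrb-/- minus WT and understate the change of low genes, because 0.5 FPKM is added to every value.

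The libraries held between 13022266 and 19532570 reads worked back from the FPKM values. Ednrb, the targeted gene, was at 2.34 to 11.7 FPKM in Ednrb-/- libraries and at 43.8 to 60.7 FPKM in WT libraries. Lists of cell type markers showed what else the explants held. Summed over 12 genes, smooth muscle markers came to between 67.1 and 367 FPKM in Ednrb-/- libraries and between 402 and 2901 FPKM in WT libraries. Neural crest markers came to between 318 and 397 FPKM over 19 genes in Ednrb-/- libraries and between 477 and 597 FPKM in WT libraries, and melanocyte markers, over 12 genes, to between 9.38 and 14.8 FPKM in Ednrb-/- libraries and between 58.0 and 199.5 FPKM in WT libraries. Neuron markers ran the other way, from 1617 to 1819 FPKM over 11 genes in Ednrb-/- libraries and from 960 to 1302 FPKM in WT libraries. Endothelial markers reached at most 2.39 FPKM in Ednrb-/- libraries and 15.0 FPKM in WT libraries, and macrophage and blood markers at most 2.20 FPKM in Ednrb-/- libraries and 2.75 FPKM in WT libraries, with Hbb-y listed at 0 in every library. The endothelial maximum, in WT replicate 3, was mostly Kdr (9.51 FPKM) and Flt1 (4.52 FPKM). Pecam1, Cdh5, Tek, Tie1, Emcn and Erg reached at most 0.330 FPKM in any library. By the same test 11 of 11 tested smooth muscle genes and 11 of 19 neural crest genes fell and 0 rose. Of 7 melanocyte genes tested 6 fell and 0 rose, and of 11 neuron genes 9 rose and 0 fell. Over all genes tested 13.0% fell and 6.53% rose. The filter can admit a gene through its WT libraries alone, as with Mlph, at 0.0236 to 0.481 FPKM in Ednrb-/- libraries. The shares that fell thus partly reflect which genes were tested. Of 12 neural progenitor genes 1 rose and 2 fell, and the number that rose was 6 without WT replicate 2, 2 without Ednrb-/- replicate 1 or 4 and 0 without WT replicate 3, 4 or 5 or Ednrb-/- replicate 2, 3 or 5. Their sums ran from 861 to 982 FPKM in Ednrb-/- libraries and from 872 to 1023 FPKM in WT libraries. Vim and Fabp7, the largest genes of these sums, ran in opposite directions, so similar sums do not mean unchanged genes. Vim, also on the mesenchymal list, was at 174 to 235 FPKM in Ednrb-/- libraries and 354 to 505 FPKM in WT libraries. Fabp7 was at 367 to 514 FPKM in Ednrb-/- libraries and 150 to 392 FPKM in WT libraries. Few endothelial (2), somite (3), limb (2) and blood (1) markers were tested, and 1 of these, the endothelial gene Kdr, fell. Without Ednrb-/- replicate 1 the somite gene Foxc1 also fell (limma, adjusted p = 0.00530). In such mixed tissue, fewer cells of a type and less RNA per cell cannot be told apart.

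**Figure D1:**
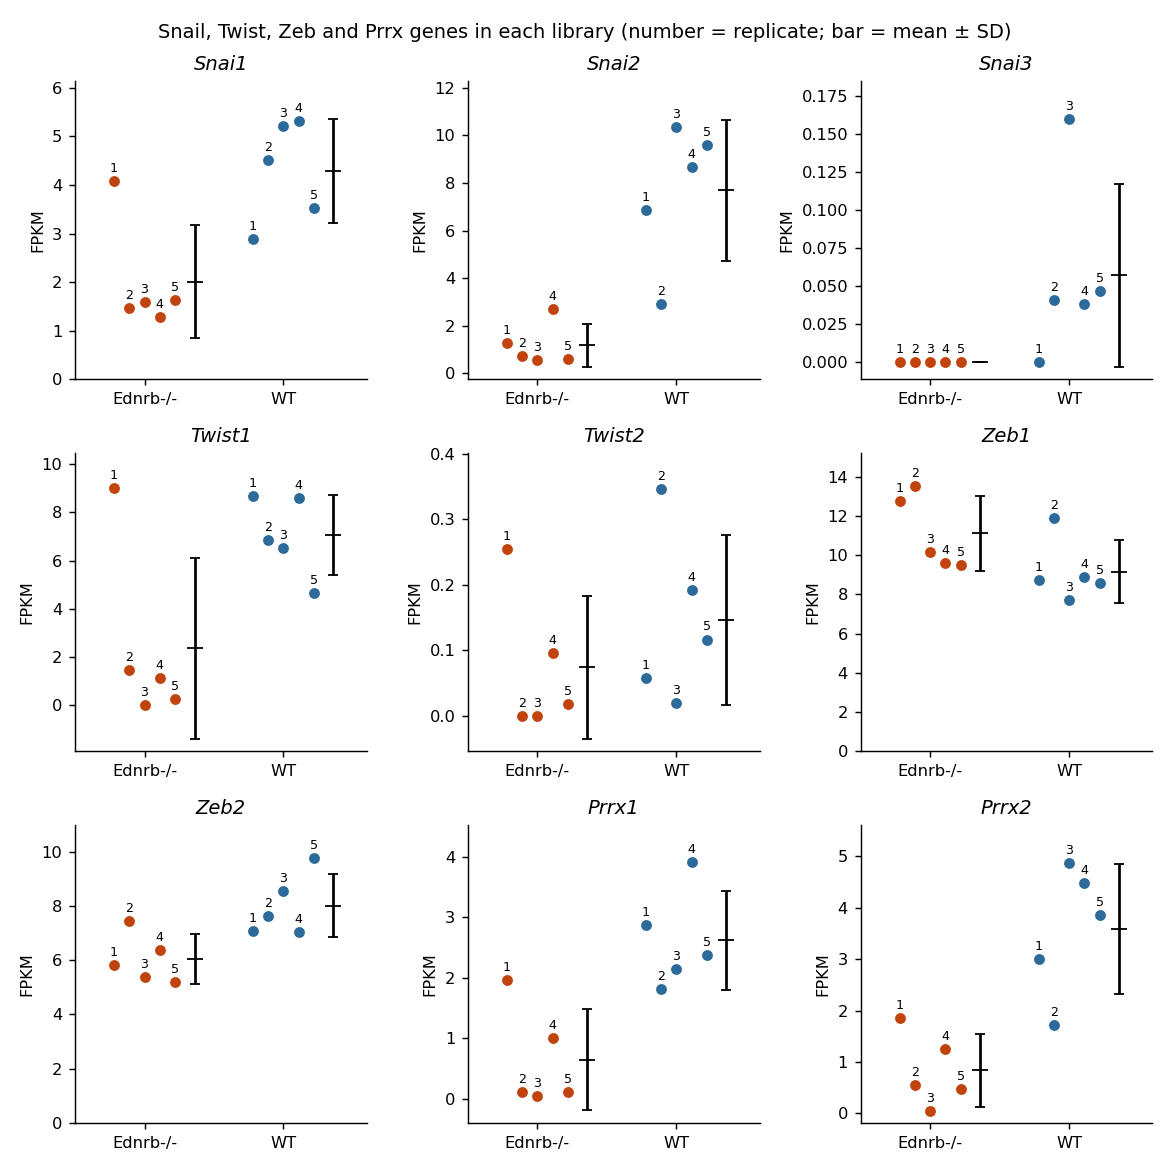
FPKM of each of the 9 genes (vertical axes, scaled per gene) in the 5 Ednrb-/- and 5 WT libraries, with the replicate number above each point and the mean ± SD beside each group. Snai2 reached at most 2.72 FPKM in Ednrb-/- libraries and at least 2.93 FPKM in WT libraries, and Ednrb-/- replicate 1 stood above the other Ednrb-/- libraries for Snai1, Twist1, Twist2, Prrx1 and Prrx2.

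Snai2, also called Slug, the Snail factor whose loss in mice leaves white spotting and a diluted coat, had the lowest adjusted p of the members. It held 1.29, 0.718, 0.565, 2.72 and 0.608 FPKM in Ednrb-/- replicates 1 to 5, against 6.87, 2.93, 10.4, 8.67 and 9.59 FPKM in WT replicates 1 to 5. All Ednrb-/- libraries lay below all WT libraries, although Ednrb-/- replicate 4 and WT replicate 2 came close to each other. The means were 1.18 ± 0.910 FPKM in Ednrb-/- and 7.69 ± 2.96 FPKM in WT explants (SD, n = 5 each), and the log2 fold change was -2.32 ± 0.373 (standard error; limma, adjusted p = 0.00333). The call held under all 19 alternative settings, with adjusted p values between 0.000338 and 0.0124. The gene has the identifier MGP_C57BL6NJ_G0022963 and spans bases 11966111 to 11969654 of chromosome 16, plus strand, in the file's coordinates, whose build the identifiers give as C57BL/6NJ. Its values rest on 19 to 90 reads in Ednrb-/- libraries and 92 to 331 reads in WT libraries.

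The library order of Snai2 was also that of contractile genes at both ends in WT explants. WT replicate 2, lowest for Snai2, had the lowest smooth muscle sum (402 FPKM), and WT replicate 3, highest for Snai2, had the highest (2901 FPKM). Among Ednrb-/- libraries replicate 4 was highest for both, with a smooth muscle sum of 367 FPKM. The part of these cells in the fall of Snai2 was not tested.

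Snai1, the founding vertebrate Snail gene and a direct repressor of Cdh1, had a smaller fold change than Snai2. It held 4.08, 1.47, 1.58, 1.29 and 1.63 FPKM in Ednrb-/- replicates 1 to 5, against 2.88, 4.5, 5.22, 5.32 and 3.52 FPKM in WT replicates 1 to 5. Ednrb-/- replicate 1 lay within the WT range and the other 4 Ednrb-/- libraries lay below it. The means were 2.01 ± 1.17 FPKM in Ednrb-/- and 4.29 ± 1.07 FPKM in WT explants (SD, n = 5 each), and the log2 fold change was -0.996 ± 0.263 (standard error; limma, adjusted p = 0.0220). Without Ednrb-/- replicate 1 the log2 fold change was -1.24 and the adjusted p 0.00367 by limma. It passed 0.05 no longer without WT replicate 3 (0.0593), WT replicate 4 (0.0605), Ednrb-/- replicate 3 (0.0519) or Ednrb-/- replicate 5 (0.0514). In the same coordinates it spans bases 178331128 to 178337248 of chromosome 2, plus strand.

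Snail and Zeb proteins bind the E-box CACCTG, and the promoter of Snai1 holds it. The window runs from 250 bases before to 50 after the start of the RefSeq gene, at chr2:167537945-167538244 of GRCm38.p6 on the plus strand, and is shown because it is the only member promoter with a match. The capitals mark the E-box, which begins at position -126 from the start.
Snai1: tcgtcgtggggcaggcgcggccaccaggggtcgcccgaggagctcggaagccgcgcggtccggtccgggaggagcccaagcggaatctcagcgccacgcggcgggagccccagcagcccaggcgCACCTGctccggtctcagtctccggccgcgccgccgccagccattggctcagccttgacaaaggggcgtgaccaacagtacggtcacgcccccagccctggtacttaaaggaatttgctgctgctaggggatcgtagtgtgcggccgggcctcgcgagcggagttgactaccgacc
Windows were at hand for 6 of the 9 members, Snai1, Twist1, Twist2, Zeb2, Prrx1 and Prrx2, with 9 windows in all because Zeb2 has 4. CACCTG or its reverse complement CAGGTG was in 1 of these 9 windows, against 20.2% of 32851 mouse windows of the same length. A match is a string of letters in a window and not a measured site.

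Snai3, the least studied Snail gene, was at or near 0 in all libraries. It was listed at 0 FPKM in all 5 Ednrb-/- libraries, where a count of 0 allows up to 3 reads or between 0.0954 and 0.145 FPKM per library, and at 0 to 0.160 FPKM in WT libraries, on at most 4 reads. No fold change is given.

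The balance within the Snail family leaned to Snai1 in most Ednrb-/- libraries and to Snai2 in most WT libraries. Snai1 made up 75.9%, 67.2%, 73.7%, 32.1% and 72.9% of the summed Snail FPKM in Ednrb-/- replicates 1 to 5, against 29.6%, 60.3%, 33.1%, 37.9% and 26.7% in WT replicates 1 to 5. Ednrb-/- replicate 4 and WT replicate 2 fell on the other side of their groups. The log2 ratio of Snai2 to Snai1, with 0.5 FPKM added to each, was -0.622 ± 0.856 in Ednrb-/- and 0.698 ± 0.738 in WT explants (SD, n = 5 each), a difference of -1.32. An exact two-sided permutation test of this difference gave p = 0.0317, 1 of 4 such ratios tested (0.0423 adjusted over the 4). Of the 10 fits without 1 library, only those without Ednrb-/- replicate 4 and without WT replicate 2 passed, and the other 8 gave exact p values between 0.0556 and 0.0714: 0.0714 without WT replicate 1, WT replicate 3, WT replicate 5, Ednrb-/- replicate 1, Ednrb-/- replicate 3 or Ednrb-/- replicate 5, 0.0635 without Ednrb-/- replicate 2 and 0.0556 without WT replicate 4.

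Twist1, a factor of cranial and somitic mesenchyme, was low in 4 Ednrb-/- libraries and high in the fifth. It held 9.0, 1.47, 0, 1.14 and 0.255 FPKM in Ednrb-/- replicates 1 to 5, against 8.67, 6.84, 6.53, 8.59 and 4.68 FPKM in WT replicates 1 to 5. Ednrb-/- replicate 1 exceeded every WT library, and the other 4 lay below all of them. The listed 0 of Ednrb-/- replicate 3 rests on 0 reads, which allows up to 3 reads or 0.101 FPKM.

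The means of Twist1 were 2.37 ± 3.76 FPKM in Ednrb-/- and 7.06 ± 1.65 FPKM in WT explants (SD, n = 5 each), and the log2 fold change was -2.18 ± 0.636 (standard error; limma, adjusted p = 0.0340). Without Ednrb-/- replicate 1 the log2 fold change was -2.82 and the adjusted p 0.00326 by limma. Leaving out any other library ended the call, at adjusted p values by limma of 0.0615, 0.0510, 0.0676, 0.0759 and 0.0548 without WT replicates 1 to 5 in turn and 0.0551, 0.0713, 0.0513 and 0.0803 without Ednrb-/- replicates 2 to 5. It also ended with no filter on low genes (0.0708) and with a pseudocount of 0.1 FPKM (0.0502), and with voom the log2 fold change was -3.52. Twist1 has the identifier MGP_C57BL6NJ_G0020069 and spans bases 33002075 to 33004221 of chromosome 12, plus strand.

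Foxc1 and Tcf15, both mesodermal, were high in the Ednrb-/- library that was highest for Twist1. Foxc1, a forkhead factor of paraxial mesoderm and head mesenchyme, was at 3.90 FPKM in Ednrb-/- replicate 1 and at 0 to 0.684 FPKM in the other 4 Ednrb-/- libraries. Tcf15, the somite factor paraxis, was at 5.62 FPKM there and at 1.25 to 2.10 FPKM in the others. The whole somite and sclerotome list of 12 genes summed to 49.5 FPKM in Ednrb-/- replicate 1, 20.9 to 32.5 FPKM in the other Ednrb-/- libraries and 23.3 to 57.2 FPKM in WT libraries, the highest being WT replicate 2. Most of that sum is Uncx, at 37.4 FPKM in Ednrb-/- replicate 1. Without Uncx it was 12.1 FPKM in Ednrb-/- replicate 1, 1.5 to 2.42 FPKM in the other Ednrb-/- libraries and 4.49 to 18.9 FPKM in WT libraries, while the defining sclerotome factors Pax1 and Pax9 were at 0.0339 and 0.0501 FPKM there. The limb and lateral plate list of 12 genes summed to 12.4 FPKM in Ednrb-/- replicate 1, against 4.76 to 5.50 FPKM in the other Ednrb-/- libraries and 7.26 to 11.1 FPKM in WT libraries, with Tbx4 listed at 0 in that library. Isl1, also a motor neuron gene, made up 8.27 FPKM of it, and without Isl1 the sum was 4.12 FPKM in Ednrb-/- replicate 1, 0.442 to 1.33 FPKM in the other Ednrb-/- libraries and 2.15 to 5.49 FPKM in WT libraries. The part of such cells in the values of Ednrb-/- replicate 1 was not tested.

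Twist2, known as Dermo1 for its place in the dermis, was near the limit of detection. It held 0 to 0.255 FPKM in Ednrb-/- libraries and 0.0200 to 0.346 FPKM in WT libraries, on at most 16 and 17 reads. The groups overlapped (exact two-sided permutation of log2(FPKM + 0.5), p = 0.333). The log2 ratio of Twist1 to Twist2 was 1.53 ± 1.42 in Ednrb-/- and 3.54 ± 0.427 in WT explants (SD, n = 5 each; exact two-sided permutation p = 0.0238, 0.0423 adjusted over the 4 ratios), with Twist2 near 0 in both. The added 0.5 FPKM exceeds Twist2 in every library, so this ratio follows Twist1 and cannot show a changed balance. Twist1 made up 92.2% to 100% of the summed Twist FPKM in Ednrb-/- libraries and 95.2% to 99.7% in WT libraries. Ednrb-/- replicate 3, with both genes at 0, has no such share.

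**Figure D2:**
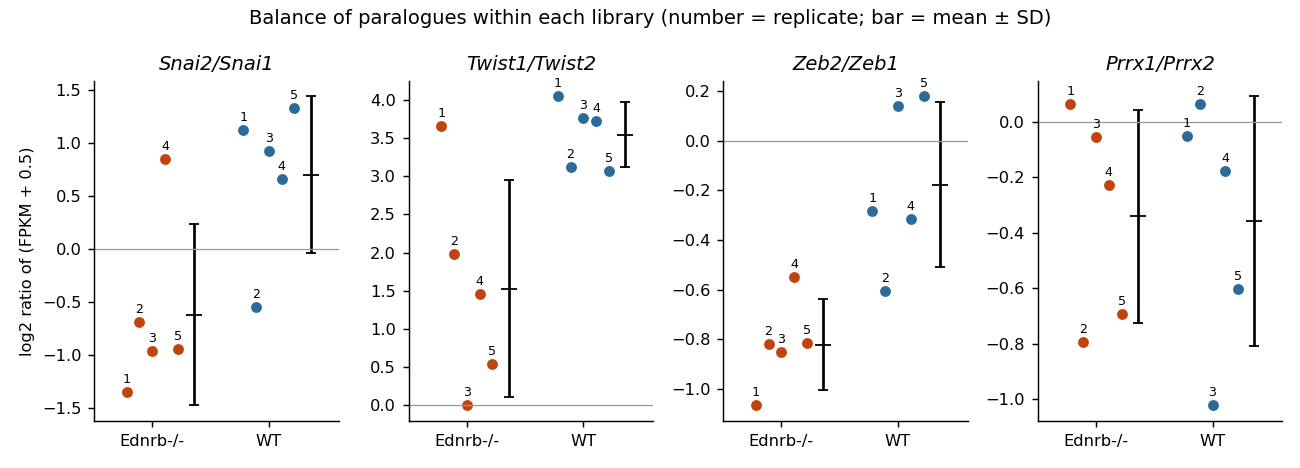
Log2 ratio of (FPKM + 0.5) for 4 pairs of paralogues (vertical axes) in each Ednrb-/- and WT library, with the replicate number above each point and the mean ± SD beside each group. The Zeb2/Zeb1 ratio averaged -0.822 in Ednrb-/- and -0.178 in WT libraries, and Ednrb-/- replicate 4 lay within the WT range.

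Zeb1 and Zeb2 had the highest mean levels in Ednrb-/- explants, although Twist1 exceeded Zeb2 in Ednrb-/- replicate 1, and each alone missed the threshold. Zeb2, mutated in the human Mowat-Wilson syndrome with its enteric crest defect, held 5.83, 7.44, 5.39, 6.39 and 5.18 FPKM in Ednrb-/- replicates 1 to 5, against 7.09, 7.63, 8.55, 7.04 and 9.77 FPKM in WT replicates 1 to 5. Only Ednrb-/- replicate 2 reached into the WT range. The means were 6.05 ± 0.907 FPKM in Ednrb-/- and 8.01 ± 1.15 FPKM in WT explants (SD, n = 5 each), and the log2 fold change was -0.379 ± 0.127 (standard error; limma, adjusted p = 0.0573). It passed with array weights (0.0268), with limma voom on reads (0.0364) and without Ednrb-/- replicate 2 (0.0298).

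The Zeb2 model spans bases 45367130 to 45507531 of chromosome 2, minus strand, and overlaps the antisense gene Zeb2os over 4577 bases. Zeb2os was at 0.873 to 1.51 FPKM in Ednrb-/- libraries and at 0.316 to 1.12 FPKM in WT libraries. With strand settings not given in the sources used here, reads in the overlap cannot be assigned with certainty.

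Zeb1 ran the other way without passing. It held 12.8, 13.5, 10.1, 9.59 and 9.51 FPKM in Ednrb-/- replicates 1 to 5, against 8.74, 11.9, 7.71, 8.88 and 8.58 FPKM in WT replicates 1 to 5. All Ednrb-/- libraries lay above 4 of the WT libraries, and WT replicate 2 lay among the Ednrb-/- values. The means were 11.1 ± 1.90 FPKM in Ednrb-/- and 9.16 ± 1.59 FPKM in WT explants (SD, n = 5 each), and the log2 fold change was 0.264 ± 0.138 (standard error; limma, adjusted p = 0.211). The lowest adjusted p over 19 alternatives was 0.0662, without WT replicate 2. Its values rest on at least 1163 reads in every library.

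The balance of the Zeb genes differed between genotypes. In mouse melanocytes and human melanoma ZEB2 is linked to the differentiated state and ZEB1 to the invasive one. Which cells of these mixed explants held the Zeb RNA is not known, and the part of melanocytes in this balance was not tested. Zeb1 was above Zeb2 in 5 of 5 Ednrb-/- libraries and in 3 of 5 WT libraries. The log2 ratio of Zeb2 to Zeb1 was -0.822 ± 0.184 in Ednrb-/- and -0.178 ± 0.333 in WT explants (SD, n = 5 each), a difference of -0.644 (exact two-sided permutation p = 0.0159, 0.0423 adjusted over the 4 ratios). Over the 10 fits without 1 library the difference lay between -0.751 and -0.555, with exact p values between 0.00794 and 0.0238. WT replicate 2 had the lowest ratio of the WT libraries, at -0.608, and Ednrb-/- replicate 4 the highest of its group, at -0.550.

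Prrx1, which marks early limb and facial mesenchyme and induces a transition in some epithelial cells, was near 0 in 3 Ednrb-/- libraries. It held 1.96, 0.104, 0.0346, 0.996 and 0.106 FPKM in Ednrb-/- replicates 1 to 5, against 2.87, 1.81, 2.14, 3.91 and 2.37 FPKM in WT replicates 1 to 5. Ednrb-/- replicate 1 lay just above WT replicate 2, the lowest of its group, and the other 4 lay below all WT libraries. The means were 0.641 ± 0.839 FPKM in Ednrb-/- and 2.62 ± 0.819 FPKM in WT explants (SD, n = 5 each), and the log2 fold change was -1.70 ± 0.415 (standard error; limma, adjusted p = 0.0155). The call held under all 19 alternatives, while the log2 fold change moved to -2.65 with a pseudocount of 0.1 FPKM and to -3.25 with voom. The gene spans bases 174294278 to 174363526 of chromosome 1, minus strand, and its values rest on 7 to 429 reads in Ednrb-/- libraries and 310 to 707 reads in WT libraries.

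Prrx2, its paralogue with overlapping roles in the skeleton of limb and face, followed the same order in Ednrb-/- libraries at its upper end. It held 1.85, 0.548, 0.0557, 1.25 and 0.480 FPKM in Ednrb-/- replicates 1 to 5, against 3.00, 1.71, 4.86, 4.49 and 3.85 FPKM in WT replicates 1 to 5. Replicates 1 and 4 were the highest Ednrb-/- libraries for both Prrx genes, and WT replicate 2 was the lowest WT library for both. The means were 0.838 ± 0.713 FPKM in Ednrb-/- and 3.58 ± 1.26 FPKM in WT explants (SD, n = 5 each), and the log2 fold change was -1.72 ± 0.380 (standard error; limma, adjusted p = 0.00986), and the call held under all 19 alternatives, with a log2 fold change of -2.60 by voom.

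The Prrx2 model, bases 30069884 to 30115960 of chromosome 2, plus strand, lies wholly within the model of Golga2, a Golgi matrix protein gene on the same strand. The level of Prrx2 is uncertain, with the counting rule for shared reads not given in the sources used here. Golga2 was at 12.9 to 19.0 FPKM in Ednrb-/- libraries and at 17.2 to 21.2 FPKM in WT libraries.

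The ratio of Prrx1 to Prrx2 did not differ beyond the spread between libraries. Its log2 value was -0.341 ± 0.383 in Ednrb-/- and -0.358 ± 0.448 in WT explants (SD, n = 5 each), a difference of 0.0167 (exact two-sided permutation p = 0.944). The difference lay between -0.149 and 0.130 over the 10 fits without 1 library. It depends on the added 0.5 FPKM, which exceeds Prrx1 in Ednrb-/- replicates 2, 3 and 5. With 0.1 FPKM added the difference was -0.318 (exact two-sided permutation p = 0.452). Prrx1 made up 51.4%, 16.0%, 38.3%, 44.3% and 18.2% of the summed Prrx FPKM in Ednrb-/- replicates 1 to 5. In WT replicates 1 to 5 it made up 48.9%, 51.4%, 30.6%, 46.6% and 38.1%.

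**Figure D3:**
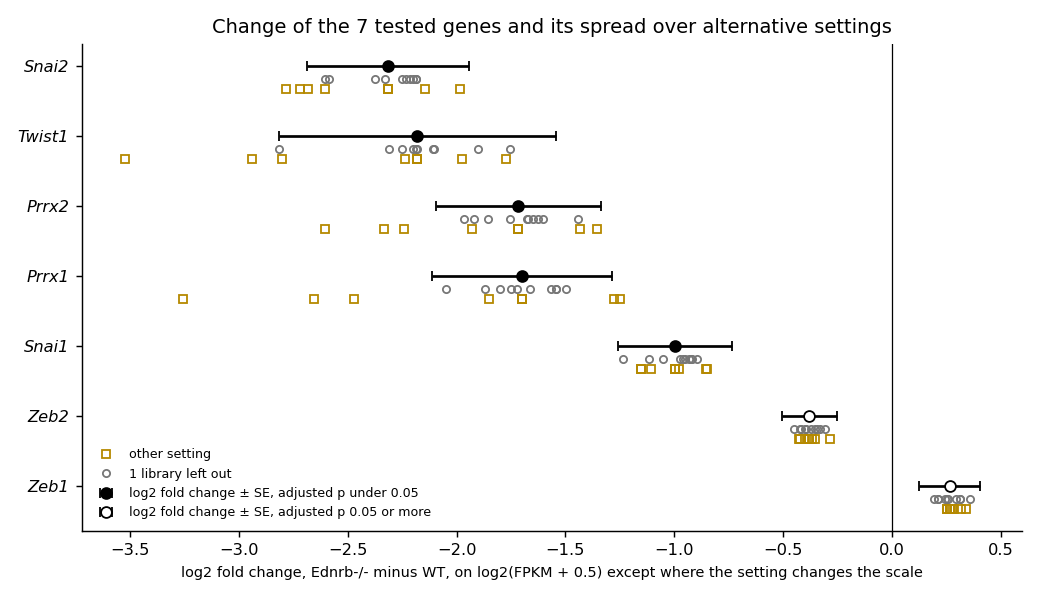
Log2 fold change (horizontal axis, Ednrb-/- minus WT) of the 7 tested genes, as black points with standard errors, with the values under each alternative setting below them. Filled points passed an adjusted p of 0.05. Snai2 lay at -2.32 and Zeb1 at 0.264, and no alternative moved a gene across 0.

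Summed over the 9 genes, the level was 37.0, 25.3, 17.8, 23.5 and 17.8 FPKM in Ednrb-/- replicates 1 to 5, against 40.2, 37.7, 45.6, 47.1 and 42.5 FPKM in WT replicates 1 to 5. Ednrb-/- replicate 1 came close to the lowest WT library, and the other 4 lay well below. Zeb1 and Zeb2 made up 50.2%, 83.0%, 87.4%, 68.1% and 82.6% of that sum in Ednrb-/- replicates 1 to 5, against 39.4%, 51.8%, 35.7%, 33.8% and 43.1% in WT replicates 1 to 5. The groups overlapped in this share only through Ednrb-/- replicate 1, which lay below WT replicate 2.

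By mean level the order in Ednrb-/- explants was Zeb1, Zeb2, Twist1, Snai1, Snai2, Prrx2, Prrx1, Twist2 and Snai3, and in WT explants Zeb1, Zeb2, Snai2, Twist1, Snai1, Prrx2, Prrx1, Twist2 and Snai3. In Ednrb-/- explants Zeb1 exceeded Zeb2 in 5 of 5 libraries and Prrx1 exceeded Twist2 in 5 of 5, while Twist1, placed above Snai1 by its mean, exceeded it in only 2 of 5. In WT explants Twist1 exceeded Snai1 and Prrx1 exceeded Twist2 in 5 of 5 libraries. The WT neighbours Zeb1 and Zeb2, Zeb2 and Snai2, Snai2 and Twist1, and Snai1 and Prrx2 kept their order in 3 of 5 libraries each, so their order does not stand out from the spread.

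**Figure D4:**
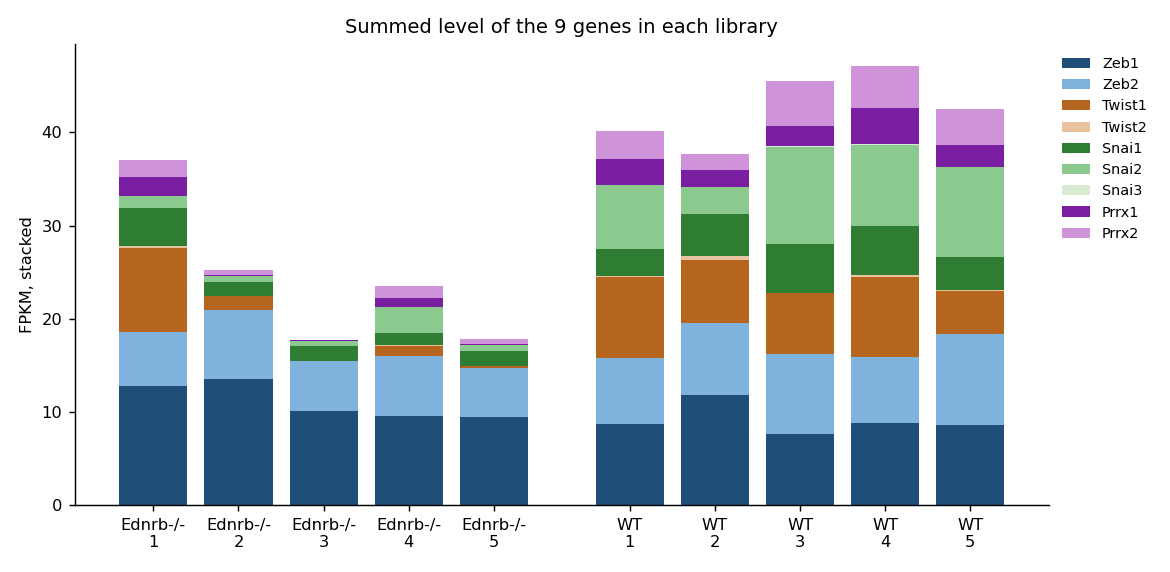
Stacked FPKM (vertical axis) of the 9 genes in each Ednrb-/- and WT library. The blue Zeb segments made up between 50.2% and 87.4% of the bar in Ednrb-/- libraries and between 33.8% and 51.8% in WT libraries.

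Some genes shared the library pattern of a member within genotypes. Likeness was taken as Pearson's r of log2(FPKM + 0.5) over the 10 libraries after subtracting each genotype's mean, among 10138 or 10139 named protein-coding genes with a mean of at least 2 FPKM. The values describe the closest of many genes and carry no p. Snai2 was most like Pros1 (r = 0.992), the gene of the anticoagulant protein S, then Tbc1d8b (0.991) and the growth factor gene Pdgfd (0.985). Twist1 was most like Star (0.990), the gene of a mitochondrial cholesterol transporter, the gap junction gene Gjb2 (0.957) and the growth factor gene Igf2 (0.938). Prrx1 was most like the sphingosine phosphate receptor gene S1pr3 (0.972), the galectin gene Lgals1 (0.961) and the scavenger receptor gene Colec12 (0.935).

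The other members had likenesses of similar size. Prrx2 was most like Eaf1 (0.975), Steap1 (0.971) and Emp3 (0.967), and Snai1 was most like Tpbg (0.921), Slc22a23 (0.911) and Rae1 (0.895). Zeb1 was most like Rce1 (0.965) and Gabpb1 (0.958), and Zeb2 was most like Mbtps2 (0.960), Rsf1 (0.947) and Qser1 (0.940). Genes alike within genotypes did not all pass the test between them: Star, most like Twist1, had a log2 fold change of 0.0723 (limma, adjusted p = 0.771), and Rae1, named for Snai1, one of -0.198 (adjusted p = 0.156).

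Few close relatives of the members passed the filter. Of 13 such genes 12 were in the table and 5 were tested. Of these 1 rose and 0 fell, against 6.53% and 13.0% of all genes tested, with a median log2 fold change of 0.43. With no filter on low genes 3 fell and 0 rose, and the number that rose was 2 without WT replicate 2 and 0 without WT replicate 1, 3, 4 or 5 or Ednrb-/- replicate 3 or 5. Scrt1, a neuronal repressor of the Scratch branch of the Snail superfamily, was at 86.2, 68.6, 76.9, 72.7 and 76.0 FPKM in Ednrb-/- replicates 1 to 5, against 47.5, 75.8, 49.4, 51.3 and 59.5 FPKM in WT replicates 1 to 5, far above any member. Its log2 fold change was 0.438 (limma, adjusted p = 0.0318). The call ended when WT replicate 1 (0.0620), 3 (0.0805), 4 (0.0791) or 5 (0.0557) was left out, or Ednrb-/- replicate 1 (0.0660), 3 (0.0667) or 5 (0.0636). Scrt2 had a log2 fold change of 0.429 and did not pass (limma, adjusted p = 0.132). It passed with array weights (0.0149) and when WT replicate 2 was left out (0.00639). Neuron markers were also higher in Ednrb-/- libraries, and their part in the level of Scrt1 was not tested. Shox2, a paired-type homeobox gene, was at 0.662 (adjusted p = 0.0574), and Scx, the tendon factor scleraxis, at -0.579 (adjusted p = 0.353).

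Corepressors that Snail and Zeb factors recruit mostly did not pass. Of 20 tested, 2 fell and 1 rose, against 13.0% and 6.53% of all genes tested. The other 17 did not pass, and the median log2 fold change of the 20 was -0.0164. Without Ednrb-/- replicate 1 the number that fell was 4, and the number that rose was 4 without WT replicate 2 and 2 without Ednrb-/- replicate 4. Ajuba, a LIM adaptor that brings arginine methylation to Snail targets, averaged 9.47 ± 2.99 FPKM in Ednrb-/- and 30.9 ± 8.34 FPKM in WT libraries (SD, n = 5 each; log2 fold change -1.66, limma, adjusted p = 0.00290). Its family members Wtip and Limd1 were at -0.816 (adjusted p = 0.00370) and -0.386 (adjusted p = 0.0602). The histone deacetylase gene Hdac2 rose, by a log2 fold change of 0.521 (adjusted p = 0.00484), with no overlap between the groups.

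Partners of Twist and their Id inhibitors showed 1 rise, of an Id gene, and 0 falls among 7 genes tested, against 6.53% and 13.0% of all genes tested. Id2, which sequesters E proteins away from Twist-type factors, averaged 138 ± 13.3 FPKM in Ednrb-/- and 92.6 ± 12.9 FPKM in WT libraries (SD, n = 5 each; log2 fold change 0.579, limma, adjusted p = 0.00564). The E protein genes Tcf3, Tcf4 and Tcf12 had log2 fold changes of -0.207, -0.0355 and -0.0355 and did not pass. Id1 and Id3 did not pass either, at 0.282 (adjusted p = 0.309) and 0.148 (adjusted p = 0.375).

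Among 11 genes of Snail and Twist protein turnover, 4 rose and 1 fell, against 6.53% and 13.0% of all genes tested. The ubiquitin ligase genes Fbxo45 and Fbxo11, known to target these factors, had log2 fold changes of 0.517 (limma, adjusted p = 0.0117) and 0.338 (adjusted p = 0.0245). Pak1, whose kinase modifies Snail, was at 0.233 (adjusted p = 0.0427). Lats2, a Hippo kinase that in human cells keeps Snail in the nucleus, averaged 4.87 ± 1.05 FPKM in Ednrb-/- and 13.0 ± 4.07 FPKM in WT libraries (SD, n = 5 each; log2 fold change -1.29, adjusted p = 0.00361). The count of rises was 1 without WT replicate 4 or 5 and 2 without WT replicate 1, WT replicate 3 or Ednrb-/- replicate 1, 2, 3 or 5. Fbxo11 passed no longer without WT replicate 4 (0.0532) or 5 (0.0601), and Pak1 without any of 8 libraries in turn (0.0520 to 0.108), all but WT replicate 2 and Ednrb-/- replicate 4.

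Genes of the signals that induce these factors fell or did not pass. Of 19 tested, 11 fell and 0 rose, against 13.0% and 6.53% of all genes tested, with a median log2 fold change of -1.01. The filter can admit a gene through its WT libraries alone, so the share that fell partly reflects which genes were tested. Tgfb2, a transforming growth factor ligand, averaged 3.49 ± 1.72 FPKM in Ednrb-/- and 19.4 ± 9.31 FPKM in WT libraries (SD, n = 5 each; log2 fold change -2.29, limma, adjusted p = 0.00412). Tgfb1 and its receptor gene Tgfbr2 were at -1.59 (adjusted p = 0.00528) and -1.84 (adjusted p = 0.00412), and Bmp2 at -1.89 (adjusted p = 0.00669). Tgfb1 and Bmp2 reached at most 0.605 and 0.691 FPKM in Ednrb-/- libraries. The signal transducers Smad2, Smad3 and Smad4 did not pass, at log2 fold changes of -0.0431, -0.169 and -0.176.

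**Figure D5:**
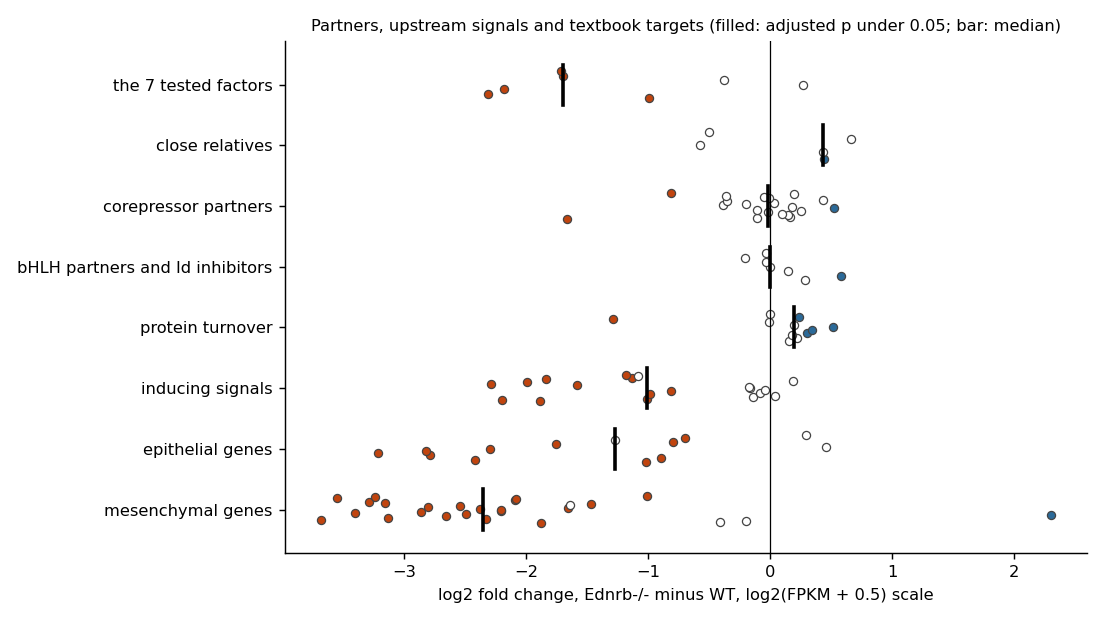
Log2 fold change (horizontal axis, Ednrb-/- minus WT) of every tested gene in each list, filled where the adjusted p was under 0.05, with the list's median as a bar. The epithelial and mesenchymal lists had medians of -1.27 and -2.35, and the corepressor list of -0.0164.

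Epithelial genes include the textbook targets of these factors, and most of those tested fell. Of 36 listed, 34 were in the table and 13 were tested. Of these 10 fell and 0 rose, against 13.0% and 6.53% of all genes tested, with a median log2 fold change of -1.27. The other 3 did not pass: the mucin gene Muc1 at 0.454 (limma, adjusted p = 0.164), the tight junction gene Tjp3 at 0.294 (adjusted p = 0.405) and the protease gene St14 at -1.27 (adjusted p = 0.0609). The keratin genes Krt19 and Krt18 averaged 1.66 ± 1.81 and 1.56 ± 1.53 FPKM in Ednrb-/- libraries, against 17.7 ± 9.21 and 12.6 ± 7.41 FPKM in WT libraries (SD, n = 5 each), with log2 fold changes of -3.21 (limma, adjusted p = 0.00313) and -2.79 (adjusted p = 0.00373). The claudin gene Cldn1 was at -1.02 (adjusted p = 0.00324), and Tjp1, the tight junction scaffold ZO-1, at -0.699 (adjusted p = 0.00329). Cdh1, the E-cadherin gene and classical Snail target, lay below the filter at 0 to 0.336 FPKM in Ednrb-/- libraries and 0.125 to 0.668 FPKM in WT libraries. In all, 11 of the 34 genes were under 0.5 FPKM in every library. The filter can admit a gene through its WT libraries alone, so the share that fell partly reflects which genes were tested. Of the genes left out, only Epcam, Mal2 and Spint1 were lower with no filter (limma, adjusted p = 0.0314, 0.0297 and 0.0193). The rest did not pass, and Marveld3 and Rab25 among them had log2 fold changes of 0.0669 and 0.128.

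Promoters of the epithelial list often held the E-box. Of the 36 genes 23 had a window, and 17 of these 23 held CACCTG or CAGGTG in at least 1 window (21 of 31 windows, against 20.2% of all mouse windows). Windows of Crb3, Ocln and Marveld2 overlap each other within a gene, so the 31 windows are not independent. Of the 7 genes with a window that fell, 4 held the E-box, namely Cldn4, Krt8, Krt18 and Spint2. It was also in 11 of the 14 genes with a window that were not tested, and in Muc1 and Tjp3, tested without passing. The E-box was thus not particular to the genes that fell. Windows of Cldn4, Spint2 and Krt18 are shown because these genes fell and hold the E-box, and that of Crb3, a polarity gene below the filter, because it held the most matches. They are at chr5:134946885-134947184 (minus), chr7:29281928-29282227 (minus), chr15:102027966-102028265 (plus) and chr17:57061951-57062250 (plus) of GRCm38.p6, with the E-boxes in capitals.
Cldn4: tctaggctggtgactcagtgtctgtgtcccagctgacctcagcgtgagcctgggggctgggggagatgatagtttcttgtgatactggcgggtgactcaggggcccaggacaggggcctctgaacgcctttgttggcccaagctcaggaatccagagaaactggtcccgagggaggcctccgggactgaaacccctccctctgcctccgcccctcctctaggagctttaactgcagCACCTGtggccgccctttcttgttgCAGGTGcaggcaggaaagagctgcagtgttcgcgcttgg
Spint2: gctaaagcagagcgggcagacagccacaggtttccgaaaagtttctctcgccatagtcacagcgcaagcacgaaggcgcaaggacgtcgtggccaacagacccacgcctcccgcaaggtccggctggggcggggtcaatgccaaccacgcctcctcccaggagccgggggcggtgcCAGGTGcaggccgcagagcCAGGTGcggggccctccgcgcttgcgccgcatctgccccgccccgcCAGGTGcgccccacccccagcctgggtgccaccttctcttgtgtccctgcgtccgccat
Krt18: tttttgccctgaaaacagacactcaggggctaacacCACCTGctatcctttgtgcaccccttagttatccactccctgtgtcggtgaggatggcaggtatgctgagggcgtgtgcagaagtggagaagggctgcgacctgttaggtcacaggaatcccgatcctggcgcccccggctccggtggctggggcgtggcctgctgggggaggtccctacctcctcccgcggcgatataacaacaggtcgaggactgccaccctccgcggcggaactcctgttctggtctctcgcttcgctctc
Crb3: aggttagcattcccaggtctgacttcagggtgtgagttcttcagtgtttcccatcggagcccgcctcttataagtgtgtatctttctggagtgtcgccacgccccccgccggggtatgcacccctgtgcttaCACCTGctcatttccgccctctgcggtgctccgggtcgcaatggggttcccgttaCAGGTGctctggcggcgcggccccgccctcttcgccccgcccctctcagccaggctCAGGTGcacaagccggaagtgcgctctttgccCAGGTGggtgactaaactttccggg
Cldn4, which seals tight junctions, was at 0.305, 0, 0, 0.877 and 0.0645 FPKM in Ednrb-/- replicates 1 to 5, against 4.43, 0.567, 3.94, 10.6 and 2.16 FPKM in WT replicates 1 to 5 (log2 fold change -2.42, limma, adjusted p = 0.0104). The groups overlapped through Ednrb-/- replicate 4 and WT replicate 2. Spint2, a protease inhibitor gene, was at -0.794 (adjusted p = 0.0267). Crb3 was at 0 to 0.639 FPKM in Ednrb-/- libraries and at 0.233 to 0.610 FPKM in WT libraries.

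Mesenchymal genes that mark the far side of the transition also fell. Of 29 listed genes 26 were tested, of which 22 fell and 1 rose, against 13.0% and 6.53% of all genes tested. The median log2 fold change was -2.35. Fn1, fibronectin, averaged 22.7 ± 13.6 FPKM in Ednrb-/- and 238 ± 129.6 FPKM in WT libraries (SD, n = 5 each; log2 fold change -3.41, limma, adjusted p = 0.00276). Vim, the mesenchymal intermediate filament, Mmp2, a gelatinase, and Cd44, a hyaluronan receptor, were at -1.01, -2.55 and -1.88 (adjusted p = 0.00276, 0.00276 and 0.00238). Cdh2, the N-cadherin gene, which neural cells also express, was at -0.202 and did not pass (adjusted p = 0.143). The matrix gene Dcn rose, with a log2 fold change of 2.30 (adjusted p = 0.0178). Its value in Ednrb-/- replicate 4, 7.16 FPKM, lay within the WT range of 3.08 to 9.49 FPKM. Summed over the list, levels were 820, 732, 581, 913 and 443 FPKM in Ednrb-/- replicates 1 to 5, against 2302, 1104, 4247, 3237 and 2744 FPKM in WT replicates 1 to 5. Ednrb-/- replicate 1, highest for Twist1, was not the highest of its group in this sum, which was replicate 4.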

How the data were processed

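The deposited table holds gene levels in FPKM, 1 column per library, as computed by the authors. Alignment and counting tools listed in the submitters' processing notes are fastp, HISAT2 2.0.5 and featureCounts 1.5.0-p3, with mm10 as the build and settings not given in the sources used here. Gene identifiers are those of the C57BL/6NJ strain: all 9 members lay on the same chromosome as in GRCm38.p6 and 0 had the same start, so coordinates are printed as the file gives them. Columns were matched to samples by genotype and replicate number in the titles, and 0 further columns of values remained. FPKM times gene length was a whole multiple of 1 step in each library for 100% of values within 0.01 of a read, which gave the reads.

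Genotypes were compared with limma-trend (limma 3.58.1, R 4.3.3, two-sided) on log2(FPKM + 0.5) over the 15156 genes with at least 0.5 FPKM in at least 5 libraries, with a Benjamini-Hochberg threshold of 0.05. Rose and fell refer to this threshold. Ratios were tested by exact permutation over all 252 assignments of 5 against 5 libraries, whose smallest p is 0.00794. The fit was also run on simulated data, in which only genes expressed in every library were given a change. That run does not test calls of members that were low in some libraries. Sequences are RefSeq promoter windows of GRCm38.p6, 250 bases before to 50 after a start.

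The members and the 16 gene lists (236 of 241 symbols found) were chosen with earlier results of these data known. Named from each list were up to 4 tested genes of lowest p, and 3 genes per tested member by likeness, of which 1 is not reported here; others named were chosen after their values were seen. P-values measure the spread between these libraries, which may be technical in part.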

Additional observations from a re-analysis of the deposited data

Results flagged for a closer look

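Among 136 groups of 5 libraries examined (members, ratios and genes named from the lists, each in both genotypes), 12 held a library whose gap to the nearest other exceeded the 95% limit of Dixon's test on FPKM, 0.71 of the group's range. Chance flags about 1 in 20 groups, so several such flags would arise with no cause.

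Ednrb-/- replicate 1 was far above the other Ednrb-/- libraries in 5 genes. Snai1 was at 4.08 FPKM, against 1.29 to 1.63 FPKM in the other 4, and Twist1 at 9.0 FPKM, against 0 to 1.47 FPKM. Foxc1 was at 3.90 FPKM, against 0 to 0.684 FPKM, Tcf15 at 5.62 FPKM, against 1.25 to 2.10 FPKM, and the motor neuron and mesoderm gene Isl1 at 8.27 FPKM, against 3.80 to 4.78 FPKM.

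WT replicate 2 was far above the other WT libraries in 4 genes. Zeb1 was at 11.9 FPKM, against 7.71 to 8.88 FPKM in the other 4, and Scrt2 at 108 FPKM, against 52.3 to 65.0 FPKM. Tcf3 was at 67.5 FPKM, against 36.8 to 45.4 FPKM, and Uncx at 38.3 FPKM, against 17.1 to 22.5 FPKM.

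Replicate 4 of each genotype stood apart in the remaining 3. In Ednrb-/- replicate 4 Krt19 was at 4.8 FPKM, against 0.444 to 1.47 FPKM in the other 4, and Mlph at 0.481 FPKM, against 0.0236 to 0.142 FPKM. In WT replicate 4 Krt18 was at 25.3 FPKM, against 6.32 to 11.6 FPKM.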

How the results depend on the processing

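All 7 tested members kept their direction under all 19 alternatives. Prrx1, Prrx2 and Snai2 kept their calls in all 19, Snai1 in 14 and Twist1 in 8, and Zeb2 passed in 3. Without 1 library the number of members that fell lay between 3 and 5, of all genes that fell between 1385 and 2089 and of all that rose between 511 and 1151. The number of all genes that rose was 659 with no filter, 1603 (with 1730 that fell) under quantile normalization, 1684 with array weights and 419 with a replicate block. Replicate numbers did not pair the samples: deviations of same-numbered libraries had correlations between -0.163 and 0.153, and no library was most like its own number. With the block Snai1 had an adjusted p of 0.0777 by limma. The sign-flip permutation that blocks on replicate cannot go below 0.0625 and left the ratio differences of -1.32 (Snai2/Snai1, p = 0.188), -2.01 (Twist1/Twist2, p = 0.0625) and -0.644 (Zeb2/Zeb1, p = 0.0625) short of 0.05. Without 1 library the Snai2/Snai1 difference lay between -1.69 and -1.14. The Prrx1/Prrx2 difference of 0.0167 was -0.318 with a pseudocount of 0.1 FPKM and lay between -0.149 and 0.130 without 1 library. Of genes that did not pass, Isl1 changed sign under quantile normalization (0.0920), voom (0.0104) and array weights (0.0399) and lay between -0.216 and 0.0514 without 1 library, and Esam was at 0.161 under quantile normalization. The number of protein turnover genes that rose was 4, against 2 with no filter, 1 with TPM rescaling and 1 with the block. Of close relatives 1 rose and 0 fell, against 0 and 3 with no filter. Of corepressor partners 1 rose, against 4 with array weights. The causes were not tested. Snai2 rested on as few as 19 reads, Prrx1 on 7 and Prrx2 on 2 in an Ednrb-/- library, so counting noise limits the low values.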

Other observations

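Relatives of the Twist and Prrx families that lay below the filter were low in Ednrb-/- libraries, and are named here after their values were seen. Hand1, a Twist relative of lateral mesoderm and crest-derived mesenchyme, held 0.126, 0, 0.0547, 0.0615 and 0.0589 FPKM in Ednrb-/- replicates 1 to 5, against 1.37, 0.162, 3.06, 3.49 and 3.26 FPKM in WT replicates 1 to 5. WT replicate 2 stood near the Ednrb-/- range and the groups did not overlap. Alx1, a paired-type homeobox gene of facial mesenchyme, was at 0 to 0.324 FPKM in Ednrb-/- libraries and 0.460 to 1.90 FPKM in WT libraries. With no filter, limma over 28144 genes gave adjusted p values of 0.0223 for Hand1 and 0.0145 for Alx1, with log2 fold changes of -2.05 and -1.46. Foxf1, a forkhead factor of lateral plate mesenchyme, was at 0 to 0.305 FPKM in Ednrb-/- libraries and at 0.268 to 2.26 FPKM in WT libraries (adjusted p = 0.0214 in the same fit).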
